A study of Homo sapiens with 22 samples.

Results

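The mitosis genes described here are 44 genes named by symbol and found by Ensembl ID among the 48162 gene IDs of the RNA-seq count table. They encode kinases, cyclins, kinetochore and checkpoint proteins, kinesins and other parts of the machinery that separates chromosomes. The cells were Kasumi-1, an established acute myeloid leukaemia line that carries the RUNX1-RUNX1T1 fusion, grown in RPMI with fetal bovine serum. The RNA-seq groups were 4 libraries with FIP1L1 shRNA 1, 4 libraries with FIP1L1 shRNA 2 and 4 control libraries with a control shRNA. All 3 groups carried a lentivirus and had passed puromycin selection, and each FIP1L1 group rests on 1 hairpin in a selected pool of cells. The hairpin, the FIP1L1 level that remained and anything else that separates shRNA 1 from shRNA 2 libraries cannot be told apart. FIP1L1 is a subunit of the factor that cuts pre-mRNA and directs addition of its poly(A) tail.

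Entry into mitosis is driven by CDK1 bound to B-type cyclins, and exit follows when the anaphase-promoting complex with CDC20 marks cyclin B and securin for destruction. In between, kinetochores attach chromosomes to spindle microtubules, the spindle checkpoint delays anaphase until they are attached, and kinesins and the cytokinesis proteins build the spindle midzone and divide the cell. Transcripts of most of these genes are low early in the cell cycle and peak in G2 and mitosis. FOXM1 and the MuvB complex with B-MYB take part in this, the second through a promoter sequence called the cell cycle genes homology region (CHR). NF-Y binds CCAAT boxes, which are often found upstream of a CHR in these promoters.

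FIP1L1 itself was at 14.1, 14.7, 15.1 and 17.6 CPM in shRNA 1 libraries, 20.2, 20.2, 19.1 and 18.7 CPM in shRNA 2 libraries, and 42.2, 38.9, 44.1 and 40.2 CPM in control libraries, where CPM are read counts relative to the library size as adjusted by TMM. Every library of either shRNA lay below every control library. The log2 change was -1.43 ± 0.10 (SE) with shRNA 1 and -1.08 ± 0.10 with shRNA 2. More FIP1L1 RNA remained in shRNA 2 than in shRNA 1 libraries, a log2 difference of 0.35 (edgeR adjusted p = 0.00415).

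Library totals ran from 12236937 to 20388437 counts, and 15834 genes passed the filter on low counts, all 44 mitosis genes among them. The lowest count of any mitosis gene in any library was 125. TMM factors were 1.05 to 1.09 in shRNA 1, 0.980 to 1.01 in shRNA 2 and 0.915 to 0.958 in control libraries, so the scaling itself differed between groups. All 6 Kasumi-1 markers had counts in every group and summed to 7810.2 to 9967 CPM in shRNA 1, 10643 to 13251 CPM in shRNA 2 and 17661 to 19781 CPM in control libraries. Most of that sum was MPO, a granule enzyme of myeloid cells. With TMM scaling all 6 (RUNX1, RUNX1T1, KIT, CD34, CD33 and MPO) were called lower with shRNA 1. CD33 was called narrowly there (log2 change -0.20, edgeR adjusted p = 0.0477), and its shRNA 1 libraries overlapped the controls. With shRNA 2, RUNX1T1, CD34 and MPO were called lower, CD33 higher, and RUNX1 and KIT were not called. MPO averaged 7212 ± 1124 CPM with shRNA 1, 9913 ± 1111 CPM with shRNA 2 and 16234 ± 866 CPM in controls (SD, n = 4 each). CD34, a surface protein of blasts and progenitors, averaged 51.8 ± 5.48 CPM with shRNA 1, 178 ± 11.8 CPM with shRNA 2 and 261 ± 39.8 CPM in controls, and CD33, a myeloid surface protein, 63.1 ± 6.10 CPM with shRNA 1, 183 ± 7.20 CPM with shRNA 2 and 72.2 ± 8.55 CPM in controls. Among markers of lymphoid, epithelial, fibroblast and monocyte cells, MS4A1, COL1A2 and FCGR3A had no count. The T and B cell markers summed to 1.45 to 2.53 CPM in shRNA 1, 2.98 to 5.21 CPM in shRNA 2 and 1.40 to 3.07 CPM in control libraries. Of these CD3E, of the T cell receptor complex, ranged over 0.00 to 0.230 CPM in shRNA 1 libraries, 1.06 to 2.03 CPM in shRNA 2 libraries and 0.553 to 1.11 CPM in control libraries and was called lower with shRNA 1 (adjusted p = 0.000737), not with shRNA 2 (adjusted p = 0.0666), and higher in shRNA 2 than in shRNA 1 libraries (adjusted p = 9.45e-06). The monocyte markers summed to 10.7 to 17.03 CPM in shRNA 1, 11.5 to 23.4 CPM in shRNA 2 and 9.19 to 17.2 CPM in control libraries. Of these LYZ, lysozyme, ranged over 2.17 to 6.58 CPM in shRNA 1 libraries, 5.59 to 7.42 CPM in shRNA 2 libraries and 0.374 to 0.841 CPM in control libraries and was called higher with shRNA 1 (2.87 ± 0.34 SE, adjusted p = 1.87e-07) and with shRNA 2 (3.28 ± 0.34 SE, adjusted p = 3.26e-08), with every library of either shRNA above the controls. The epithelial and fibroblast markers summed to 39.2 to 48.2 CPM in shRNA 1, 136 to 144 CPM in shRNA 2 and 122 to 150.2 CPM in control libraries, nearly all of it EPCAM. The part of these marker differences in the results on mitosis genes was not tested. The replicates are labelled biological, with no word on whether cells were transduced once or separately for each, and the p-values speak only of the spread among these libraries. In bulk RNA, fewer cells in mitosis and less RNA of these genes per cell cannot be told apart.

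Promoters of the mitosis genes were searched for the CHR as TTTGAA or TTCGAA and for CCAAT, on both strands, from 250 bases before to 50 after the RefSeq start (GRCh38.p14). The search was added after the expression values were seen. A match is a stretch of letters and not a measured binding site. Promoters of 37 of the 44 genes were in the table. A CHR match stood in 26 of the 37 (70.3%), against 4539 of 27305 promoters of all genes (16.6%). CCAAT stood in 28 (75.7%), against 9747 of all (35.7%). Both stood in 21 (56.8%), against 1797 of all (6.58%), and 2 or more CCAAT matches in 18 (48.6%), against 3092 of all (11.3%). The 36 CHR matches had a median first base at -27, counted from the start, and 18 of them lay within 50 bases before it. Of the 60 CCAAT matches, 42 lay 50 to 150 bases before the start, with a median at -73.5.

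The following promoters were chosen after expression values were seen. CDCA8, SPC25, CENPA, MKI67 and CCNB1 had differences between the shRNAs above 2-fold, CCNB2 shows CCAAT upstream of the CHR, ANLN was higher with both shRNAs, and TOP2A was called with neither. Each runs 5' to 3' on the gene's strand up to the base before the start, over 150 bases, with matches in capitals (CCAAT, or ATTGG on the other strand, and TTTGAA, or TTCAAA on the other strand). The window of CCNB2, a B-type cyclin, was chr15:59104996-59105145 (plus strand), that of CDCA8, the passenger complex subunit borealin, chr1:37692366-37692515 (plus strand), and that of SPC25, a kinetochore subunit, chr2:168890431-168890580 (minus strand). Those of CENPA, the centromeric histone variant, and MKI67, the Ki-67 antigen, were chr2:26785906-26786055 (plus strand) and chr10:128126424-128126573 (minus strand). Those of CCNB1, cyclin B1, and ANLN, the contractile ring protein anillin, were chr5:69167000-69167149 (plus strand) and chr7:36389712-36389861 (plus strand). That of TOP2A, DNA topoisomerase II alpha, was chr17:40417897-40418066 (minus strand), over 170 bases so that no match was cut.
CCNB2: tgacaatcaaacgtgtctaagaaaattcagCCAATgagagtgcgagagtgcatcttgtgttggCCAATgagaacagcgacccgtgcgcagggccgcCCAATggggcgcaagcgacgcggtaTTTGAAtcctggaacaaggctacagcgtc
CDCA8: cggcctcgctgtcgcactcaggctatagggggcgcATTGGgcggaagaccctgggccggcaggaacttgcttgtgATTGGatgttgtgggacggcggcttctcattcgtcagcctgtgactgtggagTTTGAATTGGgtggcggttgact
SPC25: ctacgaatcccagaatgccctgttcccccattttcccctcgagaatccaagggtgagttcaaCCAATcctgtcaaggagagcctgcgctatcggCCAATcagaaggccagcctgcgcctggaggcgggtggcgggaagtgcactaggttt
CENPA: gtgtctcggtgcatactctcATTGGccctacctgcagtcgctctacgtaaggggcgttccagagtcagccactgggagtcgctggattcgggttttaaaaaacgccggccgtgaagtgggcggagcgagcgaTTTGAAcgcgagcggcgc
MKI67: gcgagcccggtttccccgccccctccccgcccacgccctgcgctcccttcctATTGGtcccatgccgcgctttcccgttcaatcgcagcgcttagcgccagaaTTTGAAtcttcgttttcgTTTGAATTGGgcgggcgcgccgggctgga
CCNB1: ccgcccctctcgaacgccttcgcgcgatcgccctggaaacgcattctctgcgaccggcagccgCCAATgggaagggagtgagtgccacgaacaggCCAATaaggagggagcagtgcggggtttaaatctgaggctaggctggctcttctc
ANLN: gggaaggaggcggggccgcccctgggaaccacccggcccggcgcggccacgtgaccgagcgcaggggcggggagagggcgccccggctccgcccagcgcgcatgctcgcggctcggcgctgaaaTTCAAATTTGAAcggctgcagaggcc
TOP2A: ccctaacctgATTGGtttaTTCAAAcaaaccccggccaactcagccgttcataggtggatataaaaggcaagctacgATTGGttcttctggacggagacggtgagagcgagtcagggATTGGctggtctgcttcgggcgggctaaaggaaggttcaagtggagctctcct
In CCNB2, CCAAT matches precede a TTTGAA. In CDCA8 and MKI67 a TTTGAA and an ATTGG share bases. The SPC25 window shows only CCAAT, since its nearer CHR match spans the start. CCNB1 has CCAAT and no CHR match, whereas ANLN has adjacent CHR matches, 1 on each strand, and no CCAAT.

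**Figure D1:**
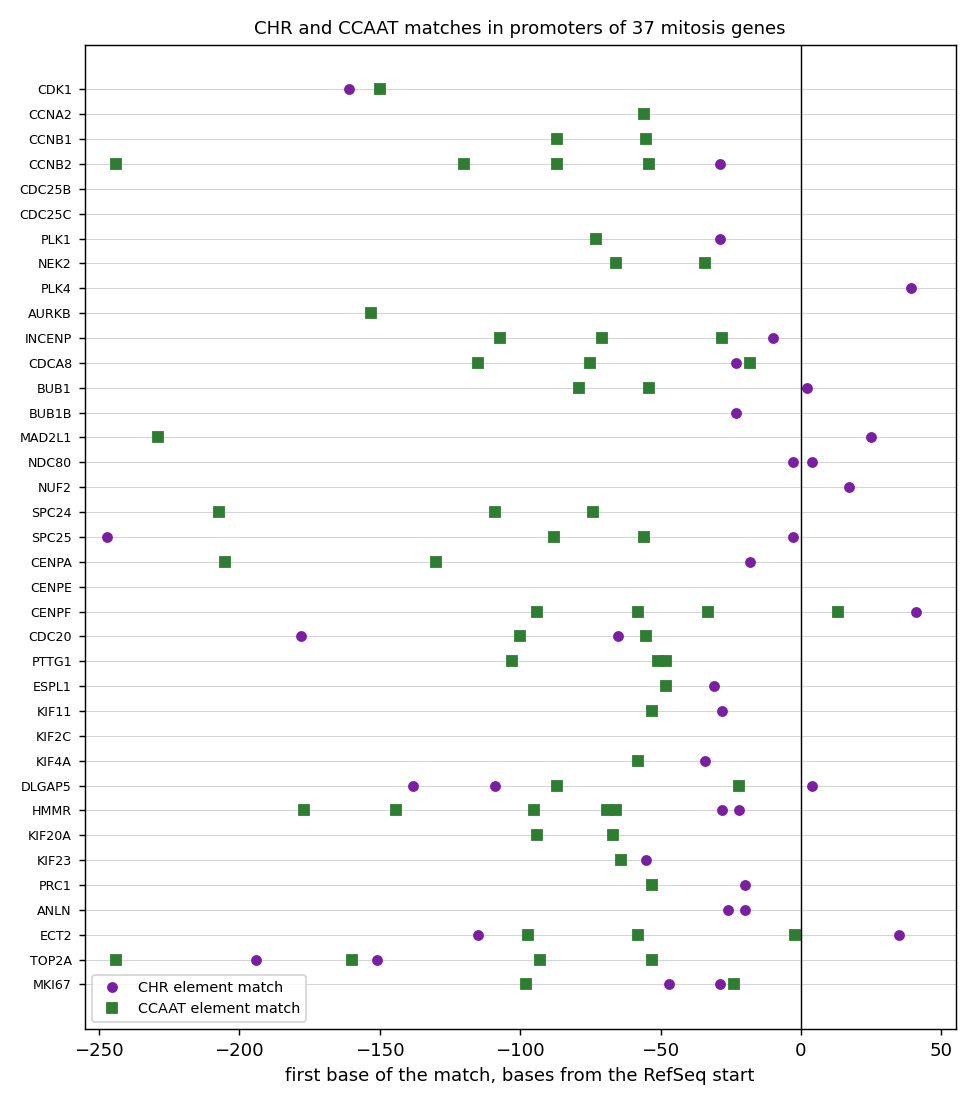
Position of every CHR match (circles) and CCAAT match (squares) in the promoters of 37 mitosis genes, in bases from the RefSeq start (x axis, 0 is the start). Most CCAAT matches sit 50 to 150 bases before the start (42 of 60), and 18 of 36 CHR matches sit within 50 bases before it.

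With shRNA 1, 26 of the 44 mitosis genes were lower than in controls and 4 were higher (CCNA2, TTK, ANLN and ECT2), at an edgeR adjusted p under 0.05. Of all genes tested, 57.3% were called, 28.7% lower and 28.6% higher. The median log2 change of the mitosis genes was -0.27, against 0.02 over all genes. In 21 mitosis genes every shRNA 1 library lay below every control library, as it did in 24.6% of all genes, and in 4 every one lay above, as in 23.7%. CCNB1 was at least 2-fold lower, as were 8.29% of all genes, and no mitosis gene was at least 2-fold higher, against 10.4%. The split depended on scaling. With total counts in place of TMM, which shifted the median of all genes by 0.19 on the log2 scale, 17 were called lower and 13 higher. Relative to that all-gene median, the median mitosis gene stood at -0.29 and 31 of 44 lay below it.

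With shRNA 2, 33 of the 44 genes were higher than in controls and 1, MAD2L1, was lower, against 24.7% of all genes called higher and 25.3% called lower, 50% in all. The median log2 change was 0.47, against 0.000475 over all genes. In 34 mitosis genes every shRNA 2 library lay above every control library, against 25% of all genes, and in 1 every one lay below, against 25.2%. ANLN was at least 2-fold higher (6.98% of all genes) and MAD2L1 at least 2-fold lower (6.35% of all genes). With total counts 35 were called higher and 1 lower. Both comparisons with the control share its 4 libraries.

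Set against each other directly, 38 of the 44 genes were higher in shRNA 2 than in shRNA 1 libraries and 2 were lower (MAD2L1 and ECT2), against 29.3% of all genes called higher and 29.4% called lower, 58.7% in all. TTK, NUF2, HMMR and TOP2A were not called. The median difference was 0.73 on the log2 scale, against -0.02 over all genes. Every shRNA 2 library lay above every shRNA 1 library in 37 genes (27% of all genes) and below in 2 (25.7%). At least 2-fold differences numbered 7 higher (8.78% of all genes) and 1 lower (10.3%). With total counts, 36 were called higher and 2 lower.

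**Figure D2:**
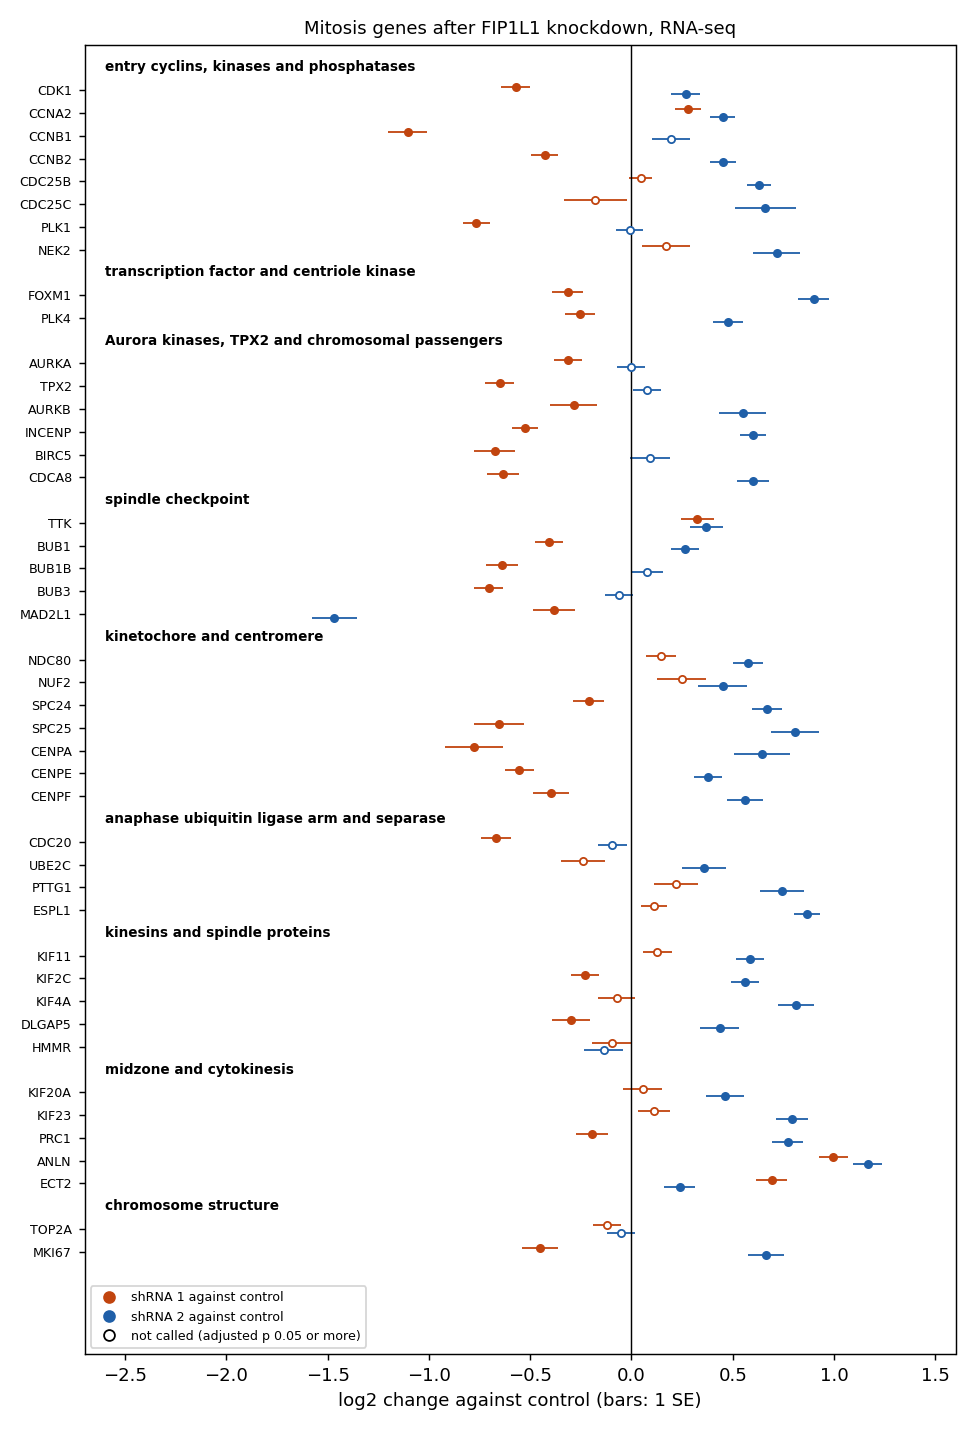
Log2 change of each mitosis gene against control (x axis) with shRNA 1 (orange) and shRNA 2 (blue), grouped by role, with bars of 1 SE from the edgeR fit over 12 libraries. Filled points were called at an adjusted p under 0.05, 26 lower and 4 higher with shRNA 1 (17 and 13 with total counts), and 33 higher and 1 lower with shRNA 2 (35 and 1 with total counts).

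Summed over the 44 genes, the level was 4016 ± 209 CPM in shRNA 1, 6161 ± 134 CPM in shRNA 2 and 4667 ± 121 CPM in control libraries (SD, n = 4 each). The shRNA 1 libraries ran from 3849.9 to 4311, the shRNA 2 libraries from 6003 to 6303 and the controls from 4561 to 4804 CPM, so no groups overlapped. As a share of raw counts the genes made up 0.418% to 0.452% in shRNA 1, 0.607% to 0.619% in shRNA 2 and 0.433% to 0.441% in control libraries. On that scale, without TMM, shRNA 1 and control libraries overlapped. The reads of PLK1, FOXM1, CCNA2, CDC25C, MAD2L1, NUF2, SPC24, KIF2C, KIF4A, HMMR, KIF20A, KIF23, PRC1 and ANLN may include those of an overlapping gene in antisense, since no source used here gives the strand setting of the counting. BUB1B, CENPA and PRC1 overlap an exon of another gene on the same strand. KIF4A and PTTG1 have near-identical retrocopies elsewhere in the genome that could take some of their reads.

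**Figure D3:**
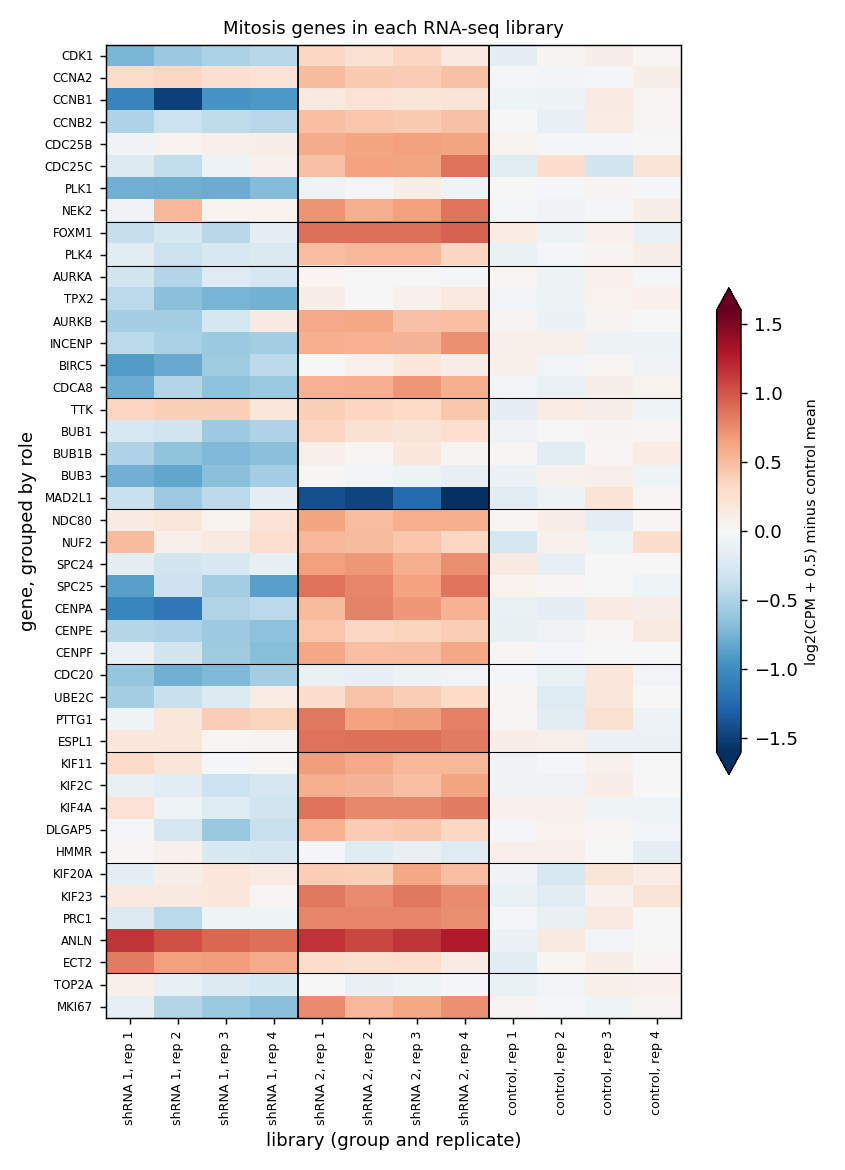
Each row is a mitosis gene, grouped by role, and each column an RNA-seq library. Colour is log2(CPM + 0.5) minus the control mean, red above and blue below. The median gene stood between -0.32 and -0.19 in shRNA 1 libraries, between 0.47 and 0.51 in shRNA 2 libraries and between -0.05 and 0.05 in control libraries.

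Of 8 cyclins, kinases and phosphatases of mitotic entry, 4 were lower and 1 higher with shRNA 1, and 6 were higher with shRNA 2. Counts by role, here and below, rest on few genes. They stand against 28.7% of all genes called lower and 28.6% called higher with shRNA 1. With shRNA 2 those shares were 25.3% and 24.7%. CCNB1, cyclin B1, was at 39.02, 28.7, 42.2 and 42.9 CPM in shRNA 1 libraries, 91.3, 96.2, 93.5 and 94.3 CPM in shRNA 2 libraries, and 77.6, 77.01, 89.9 and 82.9 CPM in control libraries. All shRNA 1 libraries were low, with a log2 change of -1.11 ± 0.10 SE, adjusted p = 1.24e-09 (edgeR). The shRNA 2 libraries lay above the controls without being called (0.20 ± 0.09 SE, adjusted p = 0.0846), and the difference of shRNA 2 from shRNA 1 was 1.30 ± 0.10 SE, adjusted p = 7.51e-11. Without shRNA 1 replicate 2, the lowest library for this gene, the shRNA 2 change was called (adjusted p = 0.0185), as it was with total counts (adjusted p = 0.0168). CCNB2, cyclin B2, was at 61.99, 68.9, 65.9 and 64.7 CPM in shRNA 1 libraries, 123, 119.7, 118 and 122 CPM in shRNA 2 libraries, and 87.2, 80.5, 95.4 and 88.7 CPM in control libraries. Its 3 groups did not overlap, with a fall with shRNA 1 (-0.43 ± 0.07 SE, adjusted p = 7.32e-06) and a rise with shRNA 2 (0.45 ± 0.07 SE, adjusted p = 4.26e-06). CDK1, the kinase that both cyclins activate, was at 90.1, 99.2, 105 and 109 CPM in shRNA 1 libraries, 189, 177, 189 and 166 CPM in shRNA 2 libraries, and 134, 154, 159 and 153 CPM in control libraries. It too fell with shRNA 1 (-0.57 ± 0.07 SE, adjusted p = 4.67e-07) and rose with shRNA 2 (0.27 ± 0.07 SE, adjusted p = 0.00352), and no shRNA library overlapped a control.

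PLK1, the polo-like kinase of centrosome maturation and spindle assembly, was at 49.1, 48.7, 48.2 and 51.9 CPM in shRNA 1 libraries, 81.1, 82.5, 90.03 and 80.6 CPM in shRNA 2 libraries, and 84.4, 82.4, 86.6 and 83.1 CPM in control libraries. All shRNA 1 libraries were below the controls (-0.77 ± 0.07 SE, adjusted p = 8.55e-10) and the shRNA 2 libraries overlapped them (-0.0094 ± 0.06 SE, adjusted p = 0.916). The difference of shRNA 2 from shRNA 1 was 0.76 ± 0.07 SE, adjusted p = 9.38e-10. NEK2, a kinase of centrosome separation, was at 20.2, 30.6, 21.9 and 21.8 CPM in shRNA 1 libraries, 34.97, 31.6, 33.4 and 38.4 CPM in shRNA 2 libraries, and 20.6, 20.1, 20.8 and 22.5 CPM in control libraries. Every shRNA 2 library was above the controls (0.72 ± 0.12 SE, adjusted p = 2.08e-05), and 1 shRNA 1 library, replicate 2, stood well above the other 3. NEK2 was not called with shRNA 1 (0.17 ± 0.12 SE, adjusted p = 0.222), and shRNA 2 differed from shRNA 1 by 0.55 (adjusted p = 0.000298). CDC25C, a phosphatase that activates CDK1, was at 9.20, 8.05, 10.2 and 11.3 CPM in shRNA 1 libraries, 15.1, 17, 16.9 and 20.1 CPM in shRNA 2 libraries, and 9.42, 13.1, 8.64 and 12.4 CPM in control libraries. It rose with shRNA 2 (0.66 ± 0.15 SE, adjusted p = 0.000886) and its shRNA 1 and control libraries overlapped (-0.18 ± 0.16 SE, adjusted p = 0.341), with a difference of shRNA 2 from shRNA 1 of 0.84 (adjusted p = 5.03e-05). CDC25B, a phosphatase of the same family, ranged over 164 to 184 CPM in shRNA 1 libraries, 257 to 269 CPM in shRNA 2 libraries and 167 to 177 CPM in control libraries, with a rise with shRNA 2 of 0.63 on the log2 scale (adjusted p = 4.36e-09), a shRNA 1 change of 0.05 (adjusted p = 0.51) and a difference of shRNA 2 from shRNA 1 of 0.58 (adjusted p = 7.73e-09). CCNA2, cyclin A2 of S phase and early mitosis, ranged over 92.6 to 99.9 CPM in shRNA 1 libraries, 105 to 113 CPM in shRNA 2 libraries and 76.5 to 84.6 CPM in control libraries and rose with shRNA 1 (0.28 ± 0.06 SE, adjusted p = 0.00059) and with shRNA 2 (0.45 ± 0.06 SE, adjusted p = 2.49e-06). Its difference of shRNA 2 from shRNA 1, 0.17, had an adjusted p of 0.0211, 0.0642 without shRNA 2 replicate 1 and 0.383 with total counts. With total counts NEK2 and CDC25B were called higher with shRNA 1 as well (adjusted p = 0.0107 for NEK2 and 0.00124 for CDC25B).

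FOXM1, the transcription factor of G2 and M phase genes, was at 50.7, 53.9, 48.1 and 59.4 CPM in shRNA 1 libraries, 122, 122, 122 and 127 CPM in shRNA 2 libraries, and 71.7, 62.1, 69.1 and 60.9 CPM in control libraries. The shRNA 2 libraries were the highest, at 186% of the control in the fit, and every shRNA 1 library lay below every control. The log2 changes were -0.31 ± 0.08 SE, adjusted p = 0.00106 with shRNA 1 and 0.90 ± 0.07 SE, adjusted p = 8.88e-10 with shRNA 2 (edgeR). Between the shRNAs the difference was 1.21 ± 0.07 SE, adjusted p = 2.97e-12. PLK4, the kinase that starts centriole duplication, was at 48.5, 42.6, 45.5 and 46.3 CPM in shRNA 1 libraries, 76.5, 79.05, 78.7 and 68.8 CPM in shRNA 2 libraries, and 50.3, 53.2, 56.2 and 57.99 CPM in control libraries. Levels fell with shRNA 1 (-0.25 ± 0.08 SE, adjusted p = 0.00636) and rose with shRNA 2 (0.48 ± 0.07 SE, adjusted p = 1.18e-05), again without overlap with controls. With total counts the shRNA 1 changes of FOXM1 and PLK4 were -0.12 (adjusted p = 0.172) and -0.06 (adjusted p = 0.51).

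**Figure D4:**
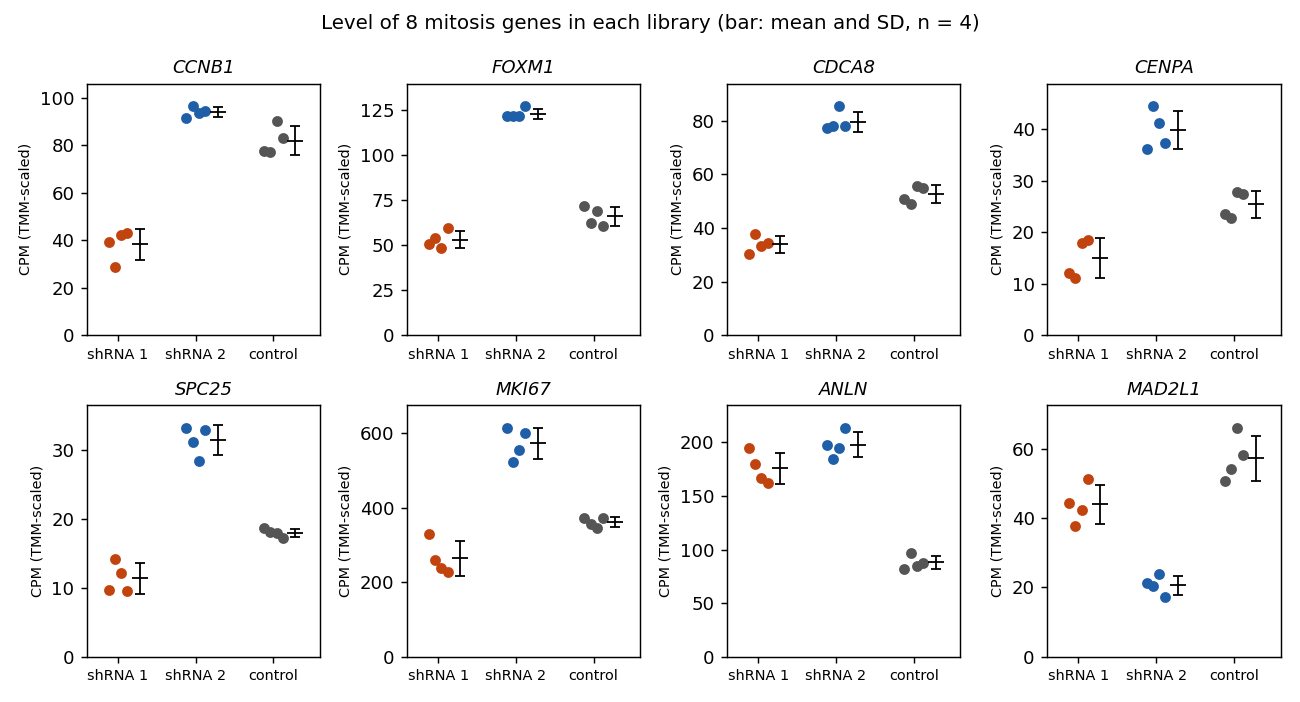
CPM in each library (y axis from 0) for 8 mitosis genes chosen after their values were seen, with shRNA 1 (orange), shRNA 2 (blue) and control (grey) libraries and their mean and SD (n = 4 each). FOXM1, CDCA8, CENPA, SPC25 and MKI67 were lowest with shRNA 1 and highest with shRNA 2, ANLN was high with both shRNAs, and MAD2L1 was lowest with shRNA 2 (17.3 to 23.9 CPM).

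The Aurora kinases and the chromosomal passenger complex, which corrects faulty attachments and later guides cytokinesis, were all lower with shRNA 1 (6 of 6, or 4 of 6 with total counts) and 3 of 6 were higher with shRNA 2. INCENP, the scaffold of the passenger complex, was at 165, 155, 147 and 151 CPM in shRNA 1 libraries, 331, 326, 324 and 368 CPM in shRNA 2 libraries, and 236, 235, 209 and 210.2 CPM in control libraries. Its groups did not overlap, with log2 changes of -0.53 ± 0.07 SE, adjusted p = 3.38e-07 with shRNA 1 and 0.60 ± 0.07 SE, adjusted p = 6.11e-08 with shRNA 2. CDCA8 (borealin) was at 30.1, 37.7, 33.1 and 34.5 CPM in shRNA 1 libraries, 77.1, 78.1, 85.3 and 77.99 CPM in shRNA 2 libraries, and 50.8, 48.8, 55.8 and 54.8 CPM in control libraries. It fell with shRNA 1 (-0.63 ± 0.08 SE, adjusted p = 4.48e-07), rose with shRNA 2 (0.60 ± 0.08 SE, adjusted p = 1.05e-06), and differed between them by 1.23 (adjusted p = 7.09e-12). BIRC5 (survivin), the third passenger protein, was at 18.2, 19.3, 22.8 and 25.4 CPM in shRNA 1 libraries, 34.3, 35.9, 38.3 and 36.8 CPM in shRNA 2 libraries, and 36.2, 33.04, 34.4 and 32.8 CPM in control libraries. Here only the shRNA 1 change was called (-0.67 ± 0.10 SE, adjusted p = 5.43e-06, against 0.09 ± 0.10 SE, adjusted p = 0.479 with shRNA 2), and the difference of shRNA 2 from shRNA 1 was 0.76 ± 0.10 SE, adjusted p = 7.97e-07.

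AURKB, the kinase of that complex, was at 26.3, 26.5, 31.9 and 43.02 CPM in shRNA 1 libraries, 59.3, 59.7, 53.8 and 54.5 CPM in shRNA 2 libraries, and 40.1, 36.3, 40.1 and 38.7 CPM in control libraries. All shRNA 2 libraries were above the controls (0.55 ± 0.12 SE, adjusted p = 0.000416), while shRNA 1 replicate 4 overlapped them. Its shRNA 1 change of -0.29 had an adjusted p of 0.0429, and the call was lost, at an adjusted p of 0.0507 to 0.146, when any of control replicates 1, 3 or 4, shRNA 1 replicates 1, 2 or 3, or shRNA 2 replicates 1 or 4 was left out. TPX2, which activates Aurora A on spindle microtubules, was at 208, 176, 167 and 166 CPM in shRNA 1 libraries, 301, 278, 293 and 312 CPM in shRNA 2 libraries, and 272, 265, 292 and 294 CPM in control libraries. It fell with shRNA 1 (-0.65 ± 0.07 SE, adjusted p = 4.78e-08) and its shRNA 2 and control libraries overlapped (0.08 ± 0.07 SE, adjusted p = 0.387), with a difference between the shRNAs of 0.73 ± 0.07 SE, adjusted p = 7.52e-09. AURKA, Aurora A itself, ranged over 54.2 to 64.6 CPM in shRNA 1 libraries, 73.4 to 76.4 CPM in shRNA 2 libraries and 70.5 to 78.6 CPM in control libraries. It was lower with shRNA 1 (-0.31 ± 0.07 SE, adjusted p = 0.000535), with a shRNA 2 change of -0.0021 ± 0.07 SE, adjusted p = 0.983 and a difference between the shRNAs of 0.31 ± 0.07 SE, adjusted p = 0.000529. With total counts the shRNA 1 calls of AURKA (-0.12, adjusted p = 0.147) and AURKB (-0.09, adjusted p = 0.556) were lost, and TPX2 was called higher with shRNA 2 (0.16, adjusted p = 0.0377).

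Among 5 spindle checkpoint genes 4 were lower and 1 higher with shRNA 1, and 1 was lower and 2 higher with shRNA 2. MAD2L1, the MAD2 protein that binds CDC20 and holds back anaphase, was at 44.4, 37.8, 42.4 and 51.2 CPM in shRNA 1 libraries, 21.1, 20.3, 23.9 and 17.3 CPM in shRNA 2 libraries, and 50.7, 53.96, 65.8 and 58.1 CPM in control libraries. The shRNA 2 libraries were far below all others, and shRNA 1 replicate 4 overlapped the controls. MAD2L1 fell with shRNA 2 to 36.2% of the control level (-1.47 ± 0.11 SE, adjusted p = 1.73e-10, edgeR) and with shRNA 1 by a log2 change of -0.38 ± 0.11 SE, adjusted p = 0.00356. It was lower in shRNA 2 than in shRNA 1 libraries (a difference of -1.08 ± 0.11 SE, adjusted p = 1.26e-08), against the direction of 38 other mitosis genes. With total counts the shRNA 1 change was -0.19 (adjusted p = 0.135).

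BUB1, a checkpoint kinase of kinetochores, was at 113, 109, 90.5 and 96.04 CPM in shRNA 1 libraries, 172, 160.2, 157 and 163 CPM in shRNA 2 libraries, and 129.96, 135, 139 and 137 CPM in control libraries. It was lower with shRNA 1 (-0.41 ± 0.07 SE, adjusted p = 2.94e-05) and higher with shRNA 2 (0.27 ± 0.07 SE, adjusted p = 0.00286), with no overlap of either with controls. BUB1B, the BUBR1 protein that inhibits CDC20, was at 41.5, 37.3, 35.6 and 36.6 CPM in shRNA 1 libraries, 61.8, 59.95, 65.9 and 60.3 CPM in shRNA 2 libraries, and 59.3, 52.2, 59.8 and 63.3 CPM in control libraries. BUB3, which brings BUB1 and BUBR1 to kinetochores, was at 63.1, 60.4, 67.7 and 73.7 CPM in shRNA 1 libraries, 109, 104, 102 and 98.6 CPM in shRNA 2 libraries, and 101, 113, 114 and 103 CPM in control libraries. In BUB1B and BUB3 every shRNA 1 library was below the controls while shRNA 2 libraries overlapped them. The log2 changes of BUB1B were -0.64 ± 0.08 SE, adjusted p = 3.02e-07 with shRNA 1 and 0.08 ± 0.08 SE, adjusted p = 0.43 with shRNA 2, and shRNA 2 differed from shRNA 1 by 0.72 ± 0.08 SE, adjusted p = 4.52e-08. Those of BUB3 were -0.70 ± 0.07 SE, adjusted p = 1.57e-08 with shRNA 1 and -0.06 ± 0.07 SE, adjusted p = 0.5 with shRNA 2, with a difference of 0.64 ± 0.07 SE, adjusted p = 6.07e-08. TTK, the MPS1 kinase at the head of the checkpoint, was at 50.2, 51.8, 51.5 and 44.7 CPM in shRNA 1 libraries, 51.4, 50.1, 49.3 and 53.6 CPM in shRNA 2 libraries, and 35.8, 42.9, 42.1 and 37.5 CPM in control libraries. Every library of either shRNA was above the controls, with rises of 0.32 ± 0.08 SE, adjusted p = 0.00162 with shRNA 1 and 0.37 ± 0.08 SE, adjusted p = 0.000598 with shRNA 2.

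At the kinetochore and centromere 5 of 7 genes were lower with shRNA 1 and all 7 were higher with shRNA 2. SPC25, a subunit of the NDC80 complex that holds microtubules, was at 9.66, 14.2, 12.1 and 9.60 CPM in shRNA 1 libraries, 33.2, 31.3, 28.5 and 33 CPM in shRNA 2 libraries, and 18.7, 18.2, 18.03 and 17.2 CPM in control libraries. The groups did not overlap, with changes of -0.65 ± 0.12 SE, adjusted p = 9.5e-05 with shRNA 1 and 0.81 ± 0.12 SE, adjusted p = 5.32e-06 with shRNA 2. The difference of shRNA 2 from shRNA 1, 1.46 ± 0.12 SE, adjusted p = 4.74e-10, exceeded that of the other 43 genes. CENPA, the histone H3 variant of centromeres, was at 12, 11.1, 17.97 and 18.6 CPM in shRNA 1 libraries, 36.2, 44.4, 41.2 and 37.4 CPM in shRNA 2 libraries, and 23.5, 22.8, 27.8 and 27.4 CPM in control libraries. A fall with shRNA 1 (-0.78 ± 0.14 SE, adjusted p = 7.51e-05) stood beside a rise with shRNA 2 (0.64 ± 0.14 SE, adjusted p = 0.000457), without overlap, although shRNA 1 replicates 1 and 2 were lower than replicates 3 and 4. SPC24, the partner of SPC25, was at 44.4, 40.3, 41.7 and 45.1 CPM in shRNA 1 libraries, 78.04, 80.3, 74.1 and 83.4 CPM in shRNA 2 libraries, and 54.6, 45.1, 49.5 and 49.2 CPM in control libraries. Its rise with shRNA 2 separated all libraries (0.67 ± 0.08 SE, adjusted p = 1.1e-07), whereas shRNA 1 libraries overlapped the controls (-0.21 ± 0.08 SE, adjusted p = 0.0213). That shRNA 1 call was lost without control replicate 1 (adjusted p = 0.0864), shRNA 1 replicate 2 (0.0578) or shRNA 1 replicate 3 (0.0517), and with total counts (0.849).

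CENPE, a kinesin that moves chromosomes to the spindle equator, was at 61.02, 59.2, 55.5 and 52.8 CPM in shRNA 1 libraries, 114, 105, 108 and 109.7 CPM in shRNA 2 libraries, and 77.3, 80.6, 85.2 and 92.03 CPM in control libraries. Levels fell with shRNA 1 (-0.55 ± 0.07 SE, adjusted p = 5.57e-07) and rose with shRNA 2 (0.38 ± 0.07 SE, adjusted p = 9.35e-05). CENPF, a large kinetochore protein, was at 211, 186, 153 and 142 CPM in shRNA 1 libraries, 351, 319, 322 and 350.3 CPM in shRNA 2 libraries, and 231, 223, 229 and 227 CPM in control libraries. The changes were -0.40 ± 0.09 SE, adjusted p = 0.000687 with shRNA 1 and 0.56 ± 0.09 SE, adjusted p = 2.09e-05 with shRNA 2, and shRNA 1 replicate 1 was the closest of its group to the controls. In both genes the 3 groups did not overlap. NDC80 and NUF2, which form the microtubule-binding end of the NDC80 complex, rose with shRNA 2 (NDC80 0.58 ± 0.07 SE, adjusted p = 9.31e-07, and NUF2 0.45 ± 0.12 SE, adjusted p = 0.0033). NDC80 ranged over 45.03 to 50.3 CPM in shRNA 1 libraries, 61.2 to 67.3 CPM in shRNA 2 libraries and 39.2 to 46.5 CPM in control libraries. NUF2 ranged over 22.5 to 30.5 CPM in shRNA 1 libraries, 26.9 to 31.05 CPM in shRNA 2 libraries and 17.3 to 26.02 CPM in control libraries. Neither was called with shRNA 1 (NDC80 0.15 ± 0.08 SE, adjusted p = 0.101, and NUF2 0.25 ± 0.12 SE, adjusted p = 0.0839). Between the shRNAs NDC80 differed by 0.43 (adjusted p = 2.89e-05) and NUF2 by 0.20 (adjusted p = 0.147). With total counts both were called higher with shRNA 1 than in controls (adjusted p = 0.000636 for NDC80 and 0.00331 for NUF2). NUF2 was also called higher with shRNA 1 without control replicate 4 (0.0204) or shRNA 1 replicate 2 (0.0427). NUF2 was called higher in shRNA 2 than in shRNA 1 libraries only without shRNA 1 replicate 1 (0.0292).

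Of 4 genes that act at the onset of anaphase, 1 was lower with shRNA 1 (25%, against 28.7% of all genes). With shRNA 2, 3 of them were higher (75%, against 24.7% of all genes). CDC20, the activator of the anaphase-promoting complex, was at 64.6, 57.98, 61.02 and 67.7 CPM in shRNA 1 libraries, 92.8, 90.5, 94.1 and 96.8 CPM in shRNA 2 libraries, and 97.7, 92.7, 113 and 96.2 CPM in control libraries. The shRNA 1 libraries were below the controls (-0.67 ± 0.07 SE, adjusted p = 3.72e-08) and the shRNA 2 libraries overlapped them (-0.09 ± 0.07 SE, adjusted p = 0.291). Between the shRNAs CDC20 differed by 0.58 ± 0.07 SE, adjusted p = 3.58e-07. ESPL1, the protease separase that cuts cohesin, was at 164, 166, 149.98 and 151 CPM in shRNA 1 libraries, 268, 271, 268 and 261 CPM in shRNA 2 libraries, and 157, 154, 137 and 137 CPM in control libraries. PTTG1, the separase inhibitor securin, was at 25.2, 29.95, 34.8 and 34.1 CPM in shRNA 1 libraries, 47.8, 41.8, 42.3 and 46.7 CPM in shRNA 2 libraries, and 26.7, 23.4, 31.3 and 25.01 CPM in control libraries. Every shRNA 2 library exceeded the controls for both genes, with rises of 0.87 ± 0.06 SE, adjusted p = 1.27e-10 for ESPL1 and 0.75 ± 0.11 SE, adjusted p = 4.52e-06 for PTTG1. With shRNA 1 the change of ESPL1 was 0.11 ± 0.06 SE, adjusted p = 0.148 and that of PTTG1 0.22 ± 0.11 SE, adjusted p = 0.0912, both called higher with total counts (adjusted p = 0.00037 for ESPL1 and 0.0025 for PTTG1). The difference of shRNA 2 from shRNA 1 was 0.76 (adjusted p = 5.55e-10) for ESPL1 and 0.53 (adjusted p = 0.000189) for PTTG1. PTTG1 was also called with shRNA 1 without control replicate 3 (0.0274) or shRNA 1 replicate 1 (0.0131). UBE2C, the ubiquitin-conjugating enzyme of the anaphase-promoting complex, ranged over 54.8 to 87.2 CPM in shRNA 1 libraries, 97.9 to 110.3 CPM in shRNA 2 libraries and 69.7 to 90.8 CPM in control libraries and rose with shRNA 2 (0.36 ± 0.11 SE, adjusted p = 0.0093). Its shRNA 1 change of -0.24 ± 0.11 SE, adjusted p = 0.0691 was called lower without control replicate 2 (0.0288), without shRNA 1 replicate 4 (0.000625), with no low-count filter (0.00651) and with the replicate block (0.0386), and its difference between the shRNAs was 0.60 (adjusted p = 9.32e-05).

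Among the kinesins and spindle proteins 2 of 5 were lower with shRNA 1 (40%, against 28.7% of all genes). With shRNA 2, 4 of 5 were higher (80%, against 24.7% of all genes). KIF2C, the kinesin that disassembles microtubule ends (MCAK), was at 84.3, 81.4, 72.2 and 76.1 CPM in shRNA 1 libraries, 138, 134, 128 and 143 CPM in shRNA 2 libraries, and 87.96, 88.3, 99.3 and 92.3 CPM in control libraries. It was lower with shRNA 1 (-0.23 ± 0.07 SE, adjusted p = 0.00655) and higher with shRNA 2 (0.56 ± 0.07 SE, adjusted p = 3.14e-07) without overlap, and the shRNA 1 change was -0.03 (adjusted p = 0.646) with total counts. DLGAP5, the HURP protein of kinetochore fibres, was at 51.9, 43.3, 34.1 and 40.8 CPM in shRNA 1 libraries, 77.1, 69.4, 70.5 and 65.9 CPM in shRNA 2 libraries, and 51.5, 54.3, 53.1 and 50.6 CPM in control libraries. It rose with shRNA 2 (0.43 ± 0.09 SE, adjusted p = 0.000511), and shRNA 1 replicate 1 overlapped the controls. Its shRNA 1 change (-0.30 ± 0.10 SE, adjusted p = 0.0104) was no longer called without shRNA 1 replicate 3 (0.0545) or with total counts (0.329). KIF4A, a chromokinesin, was at 77.5, 62.9, 57.2 and 52.8 CPM in shRNA 1 libraries, 121, 113, 112 and 116 CPM in shRNA 2 libraries, and 69.1, 69.2, 62.7 and 62.9 CPM in control libraries. KIF11, the kinesin that pushes spindle poles apart, was at 252, 231, 199 and 205 CPM in shRNA 1 libraries, 322, 308, 293 and 294 CPM in shRNA 2 libraries, and 196, 198, 213 and 204 CPM in control libraries. All shRNA 2 libraries of KIF4A and KIF11 were above the controls (0.81 ± 0.09 SE, adjusted p = 7.55e-08 for KIF4A, and 0.58 ± 0.07 SE, adjusted p = 2.81e-07 for KIF11), and their shRNA 1 libraries overlapped them (-0.07 ± 0.09 SE, adjusted p = 0.499 for KIF4A, and 0.13 ± 0.07 SE, adjusted p = 0.123 for KIF11). Between the shRNAs KIF4A differed by 0.88 (adjusted p = 1.07e-08) and KIF11 by 0.46 (adjusted p = 6.21e-06). KIF4A was called lower with shRNA 1 without its replicate 1 (0.0265), and KIF11 higher without replicate 3 (0.0477) or with total counts (0.000175). HMMR, a spindle-binding protein also known as a hyaluronan receptor, ranged over 31.1 to 39.5 CPM in shRNA 1 libraries, 32.6 to 36.7 CPM in shRNA 2 libraries and 33.6 to 39.9 CPM in control libraries. Its changes of -0.10 ± 0.10 SE, adjusted p = 0.4 with shRNA 1 and -0.14 ± 0.10 SE, adjusted p = 0.252 with shRNA 2 were not called.

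Of 5 midzone and cytokinesis genes, 2 were higher with shRNA 1 (40%, against 28.6% of all genes) and 1 lower (20%, against 28.7%). With shRNA 2 all 5 were higher, against 24.7% of all genes. ANLN (anillin), which organises the contractile ring, was at 194, 179, 167 and 162 CPM in shRNA 1 libraries, 197, 185, 195 and 213 CPM in shRNA 2 libraries, and 82.3, 96.99, 85.04 and 87.8 CPM in control libraries. Every library of either shRNA was far above the controls, at 199.6% of control with shRNA 1 (1.00 ± 0.07 SE, adjusted p = 4.65e-11) and 224% with shRNA 2 (1.17 ± 0.07 SE, adjusted p = 6.67e-12, edgeR). Between the shRNAs the libraries overlapped, and the difference of 0.17 (adjusted p = 0.043) lost its call without any of control replicate 4, shRNA 1 replicates 2, 3 or 4, or shRNA 2 replicates 1, 3 or 4 (0.0512 to 0.149). ECT2, which activates RhoA at the cell equator, was at 100.3, 88.9, 89.3 and 84.4 CPM in shRNA 1 libraries, 68.8, 67.04, 67.4 and 61.4 CPM in shRNA 2 libraries, and 49.4, 57.3, 60.4 and 57.3 CPM in control libraries. It rose with shRNA 1 (0.69 ± 0.08 SE, adjusted p = 4.92e-08) and, less, with shRNA 2 (0.24 ± 0.08 SE, adjusted p = 0.0128), and it was lower in shRNA 2 than in shRNA 1 libraries (a difference of -0.46 ± 0.08 SE, adjusted p = 1.7e-05). Without control replicate 1 the shRNA 2 change of ECT2 was 0.18 (adjusted p = 0.06).

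KIF23, the kinesin of the centralspindlin complex, was at 73.6, 72.8, 74.2 and 66.6 CPM in shRNA 1 libraries, 118, 111, 119 and 112 CPM in shRNA 2 libraries, and 61.4, 58.1, 69.6 and 76.6 CPM in control libraries. PRC1, which bundles midzone microtubules, was at 76.6, 65.98, 84.8 and 84.5 CPM in shRNA 1 libraries, 154, 153, 153 and 149 CPM in shRNA 2 libraries, and 86.7, 81.9, 99.1 and 88.7 CPM in control libraries. Every shRNA 2 library was above the controls for both genes (0.79 ± 0.08 SE, adjusted p = 1.32e-08 for KIF23 and 0.77 ± 0.08 SE, adjusted p = 1.78e-08 for PRC1), while their shRNA 1 libraries overlapped the controls. PRC1 was called lower with shRNA 1 (-0.19 ± 0.08 SE, adjusted p = 0.0364), but not without control replicate 3 (0.146), control replicate 4 (0.0583) or shRNA 1 replicate 2 (0.162), and with total counts its sign turned (0.0014, adjusted p = 0.989). KIF23 with shRNA 1 was at 0.11 ± 0.08 SE, adjusted p = 0.234, and was called higher without control replicate 4 (0.0483) or with total counts (0.00119). KIF20A, which carries the passenger complex to the midzone, ranged over 46.3 to 59.03 CPM in shRNA 1 libraries, 67.4 to 79.7 CPM in shRNA 2 libraries and 43.3 to 59.3 CPM in control libraries. It rose with shRNA 2 (0.46 ± 0.09 SE, adjusted p = 0.000275), differed from shRNA 1 there by 0.41 (adjusted p = 0.0007), and was called with shRNA 1 only with total counts (0.25, adjusted p = 0.0253). For KIF23 the difference of shRNA 2 from shRNA 1 was 0.68 (adjusted p = 7.21e-08).

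The last role held MKI67 and TOP2A, both used as proliferation markers. MKI67, the Ki-67 protein that coats mitotic chromosomes, was at 331, 261, 239 and 228 CPM in shRNA 1 libraries, 614, 523, 556 and 602 CPM in shRNA 2 libraries, and 374, 358, 345 and 372 CPM in control libraries. The groups did not overlap, and shRNA 1 replicate 1 was the highest of its group. MKI67 fell with shRNA 1 (-0.45 ± 0.09 SE, adjusted p = 0.000182) and rose with shRNA 2 (0.66 ± 0.09 SE, adjusted p = 2.41e-06), a difference of 1.12 ± 0.09 SE, adjusted p = 8.15e-10 between the shRNAs. TOP2A, which untangles sister chromatids, ranged over 649 to 812 CPM in shRNA 1 libraries, 712 to 774 CPM in shRNA 2 libraries and 714 to 816 CPM in control libraries. It was called with neither shRNA (-0.12 ± 0.07 SE, adjusted p = 0.148 with shRNA 1 and -0.05 ± 0.07 SE, adjusted p = 0.569 with shRNA 2), but was called lower with shRNA 1 without that shRNA's replicate 1 (-0.19, adjusted p = 0.00985).

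Other genes of cell division were taken from 11 lists with 210 genes in all, to be read against the shares of all genes given above. Of 8 condensin genes, whose products compact chromosomes, 6 were lower and 1 higher with shRNA 1 (1 and 2 with total counts), and 6 were higher with shRNA 2, with median log2 changes of -0.25 with shRNA 1 and 0.28 with shRNA 2. NCAPD2, a condensin subunit, rose with both shRNAs (log2 0.39 with shRNA 1 and 0.53 with shRNA 2). Of 30 other spindle and cytokinesis genes, 12 were lower and 5 higher with shRNA 1 (8 and 10 with total counts), and 3 lower and 20 higher with shRNA 2, with median log2 changes of -0.09 with shRNA 1 and 0.31 with shRNA 2. CKAP2L, a spindle protein, rose with both (log2 0.51 with shRNA 1 and 0.82 with shRNA 2), as did HAUS8, of the augmin complex (log2 0.60 with shRNA 1 and 0.56 with shRNA 2). Of 30 other kinetochore and centromere genes, 6 were lower and 10 higher with shRNA 1 (4 and 16 with total counts). With shRNA 2, 17 of these were higher and 2 lower, with median log2 changes of 0.07 with shRNA 1 and 0.35 with shRNA 2. CENPT and CENPQ, subunits of the inner kinetochore, rose with both (CENPT log2 0.83 with shRNA 1 and 0.70 with shRNA 2, and CENPQ log2 0.71 with shRNA 1 and 0.50 with shRNA 2).

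Of 17 genes of the anaphase-promoting complex and its regulators, 5 were lower and 5 higher with shRNA 1 (3 and 10 with total counts), and 2 lower and 6 higher with shRNA 2, with median log2 changes of 0.10 with shRNA 1 and 0.17 with shRNA 2. ANAPC1, a scaffold subunit, averaged 83.9 ± 13.97 CPM with shRNA 1, 107 ± 3.85 CPM with shRNA 2 and 176 ± 9.15 CPM in controls (SD, n = 4 each) and fell with both (log2 -1.07 with shRNA 1 and -0.72 with shRNA 2). ANAPC13, a small subunit, rose with both (log2 0.68 with shRNA 1 and 0.62 with shRNA 2). Of 16 genes of cohesin and its regulators, 5 were lower and 2 higher with shRNA 1 (4 and 8 with total counts), and 2 lower and 6 higher with shRNA 2, with median log2 changes of -0.02 with shRNA 1 and 0.05 with shRNA 2. ESCO2, the cohesin acetyltransferase of S phase, rose with both (log2 0.39 with shRNA 1 and 0.59 with shRNA 2), and so did MAU2, of the cohesin loader (log2 0.40 with shRNA 1 and 0.21 with shRNA 2). The 15 mitotic entry and exit regulators had 6 lower and 3 higher with shRNA 1 (4 and 6 with total counts), and 2 lower and 8 higher with shRNA 2, with median log2 changes of -0.17 with shRNA 1 and 0.30 with shRNA 2. ENSA, an inhibitor of the phosphatase PP2A in mitosis, fell with both (log2 -0.37 with shRNA 1 and -0.25 with shRNA 2), and CDC14A, a phosphatase, rose with both (log2 0.36 with shRNA 1 and 0.24 with shRNA 2). Of 9 centriole duplication genes, 1 was lower and 3 higher with shRNA 1 (1 and 5 with total counts), and 3 were higher with shRNA 2, with median log2 changes of 0.02 with shRNA 1 and 0.12 with shRNA 2. CCP110, which caps centrioles, rose with both (log2 0.47 with shRNA 1 and 0.35 with shRNA 2), as did CENPJ, which sets centriole length (log2 0.25 with shRNA 1 and 0.58 with shRNA 2).

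Among genes that act before mitosis, 48 belong to DNA replication. Of these, 33 were lower and 2 higher with shRNA 1 (26 and 7 with total counts), and 15 lower and 11 higher with shRNA 2 (13 and 16 with total counts), with median log2 changes of -0.43 with shRNA 1 and -0.03 with shRNA 2. GINS2, a subunit of the replicative helicase, fell with both (log2 -0.78 with shRNA 1 and -0.79 with shRNA 2), as did TIPIN, of the replication fork (log2 -0.66 with shRNA 1 and -0.90 with shRNA 2). Of 15 G1 cyclins, kinases and inhibitors, 8 were lower and 4 higher with shRNA 1 (4 and 5 with total counts), and 2 lower and 8 higher with shRNA 2, with median log2 changes of -0.23 with shRNA 1 and 0.31 with shRNA 2. CDKN2D, the CDK4 and CDK6 inhibitor p19INK4D, averaged 10.7 ± 3.82 CPM with shRNA 1, 13.97 ± 0.798 CPM with shRNA 2 and 2.47 ± 1.03 CPM in controls. It rose with both shRNAs (2.14 ± 0.28 SE, adjusted p = 3.03e-06 with shRNA 1, and 2.53 ± 0.28 SE, adjusted p = 4.72e-07 with shRNA 2). CCND1, cyclin D1, averaged 29.5 ± 8.59 CPM with shRNA 1, 29.4 ± 0.454 CPM with shRNA 2 and 74.2 ± 6.66 CPM in controls. It fell with both (-1.33 ± 0.14 SE, adjusted p = 2.98e-07 with shRNA 1, and -1.33 ± 0.14 SE, adjusted p = 4.16e-07 with shRNA 2). Of 19 genes of MuvB and E2F-RB transcription control, 9 were lower and 3 higher with shRNA 1 (6 and 6 with total counts), and 7 lower and 9 higher with shRNA 2, with median log2 changes of -0.17 with shRNA 1 and 0.13 with shRNA 2. E2F7, a repressor of the E2F family, rose with both (log2 0.61 with shRNA 1 and 1.20 with shRNA 2), and so did LIN52, of the MuvB core (log2 0.69 with shRNA 1 and 0.55 with shRNA 2). Of the 3 NF-Y subunits, NFYA averaged 80.5 ± 12.1 CPM with shRNA 1, 83.4 ± 6.73 CPM with shRNA 2 and 138 ± 4.11 CPM in controls. NFYA fell with both (-0.78 ± 0.08 SE, adjusted p = 3.81e-08 with shRNA 1, and -0.73 ± 0.08 SE, adjusted p = 1.61e-07 with shRNA 2). NFYB was called with neither shRNA, and NFYC rose with shRNA 2 (0.68 ± 0.10 SE, adjusted p = 4.96e-06), a difference from shRNA 1 of 0.60 (adjusted p = 1.5e-05).

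**Figure D5:**
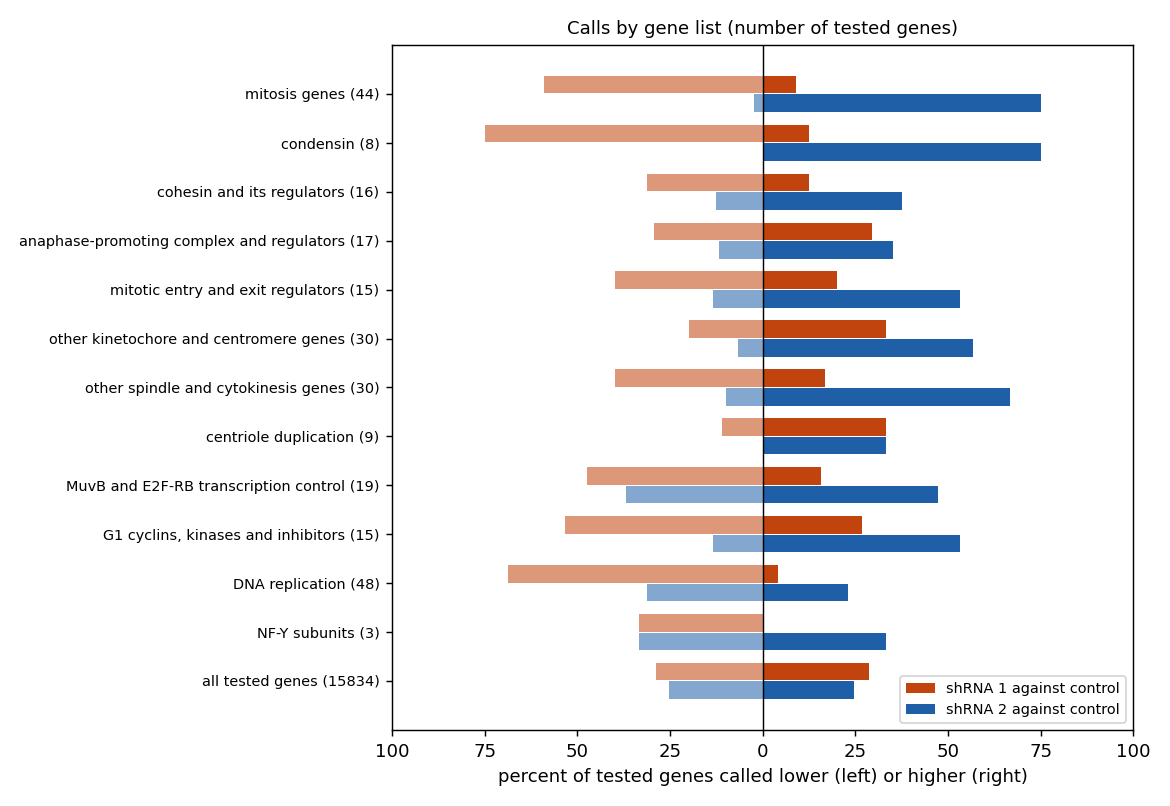
Percent of tested genes in each list called lower (left of 0, pale) or higher (right of 0, dark) with shRNA 1 (orange) and shRNA 2 (blue), with the number of tested genes in brackets. With TMM scaling the mitosis genes stood at 59.1% lower and 9.09% higher with shRNA 1, and 2.27% lower and 75% higher with shRNA 2, against 28.7% lower and 28.6% higher, and 25.3% lower and 24.7% higher, of all 15834 genes. With total counts the balance with shRNA 1 turned for the lists of condensin, cohesin, other spindle and cytokinesis genes, mitotic entry and exit regulators, and G1 genes, and that with shRNA 2 for DNA replication.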

How the data were processed

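RNA-seq libraries of 3 groups with 4 libraries each were used. The 10 3'READS libraries of the series, counts per poly(A) site on hg19, were not analysed here, since sites could not be assigned to genes without an hg19 annotation. The deposited RNA-seq values were raw counts of reads per Ensembl gene, in whole numbers. Per the labels' protocols, RNA was extracted with Trizol and libraries made with the NEBNext Ultra kit. The submitters' processing notes name hg19, STAR 2.7.3a, cutadapt 2.6 and DESeq2 and give no roles. How reads were counted (tool, annotation, strand) was not given in the sources used here. Symbols came from a reference list of gene names by Ensembl ID, or from GENCODE 29 where that list had none. Gene overlaps came from GENCODE 29 on GRCh38.

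The test was edgeR's quasi-likelihood F test (version 4.0.16, under R 4.3.3), with all 12 libraries in 1 fit, a term per group, TMM scaling, filterByExpr, robust estimation of the spread and 9 residual degrees of freedom. Tests were two-sided, with Benjamini-Hochberg adjustment over 15834 genes and a threshold of 0.05. The SE of a log2 change was derived from the test, as its absolute value divided by the square root of the F statistic. The step was tested on simulated data, where it missed the recovery first required at the smaller fold size, and that requirement was then lowered. No 2 replicates of a group agreed within sampling noise (chi-square over degrees of freedom 3.65 to 32.4 over 18 pairs). Alternatives were RLE size factors, DESeq2 1.42.0, no low-count filter, fits of only the groups compared, a replicate block, leaving out each of 12 libraries, and total counts.

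The members and the lists were chosen with earlier results of these data known. By rule, every library is given for the 2 called genes with the largest change per role and shRNA and for genes called in opposite directions with the shRNAs, 35 in all. From each other list at most 2 genes called in the same direction with both were named. NFYB and NFYC, the promoter search, the promoters printed, the genes plotted by library and the total-count scaling were chosen after values were seen. A further list of marker genes is not reported here.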

Additional observations from a re-analysis of the deposited data

Results flagged for a closer look

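In 135 groups of 4 libraries (44 mitosis genes and FIP1L1 in 3 groups), 4 had a library set apart by Dixon's test. That test compares the gap to the nearest library with the group's range, so small differences can be flagged in tight groups. Chance flags about 1 group in 20. NEK2 was at 30.64 CPM in shRNA 1 replicate 2, against 20.22 to 21.88 CPM in the other 3 libraries of that group. FOXM1 was at 127.0 CPM in shRNA 2 replicate 4 (121.5 to 121.7 CPM in the other 3), INCENP at 368.1 CPM in shRNA 2 replicate 4 (324.3 to 331.3 CPM), and CDCA8 at 85.32 CPM in shRNA 2 replicate 3 (77.14 to 78.09 CPM).

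The shRNAs moved 17 of the 44 mitosis genes in opposite directions from the control, each called by edgeR. These genes were lower with shRNA 1 and higher with shRNA 2. Of all genes tested, 28.7% were called lower with shRNA 1 and 24.7% higher with shRNA 2. The share of all genes with both calls was not counted, so how far the mitosis genes stand out here is not known. For these 17 genes the difference of shRNA 2 from shRNA 1 was taken from the same fit, and every adjusted p was 2.16e-06 or lower. These p-values add no separate support. A called difference was part of the rule that chose the genes, and it follows from their 2 opposite changes. The opposite directions depended on scaling for some: with total counts the shRNA 1 calls of FOXM1 (adjusted p = 0.172), PLK4 (0.51), AURKB (0.556), SPC24 (0.849), KIF2C (0.646), DLGAP5 (0.329) and PRC1 (0.989, with its sign turned) were lost. Cyclins and kinases of entry differed by 0.8389 (CDK1) and 0.8807 (CCNB2) on the log2 scale. FOXM1 differed by 1.214 and PLK4 by 0.7301. In the passenger complex the differences were 0.8357 (AURKB), 1.126 (INCENP) and 1.233 (CDCA8). BUB1 of the checkpoint differed by 0.6726. At the kinetochore they were 0.8817 (SPC24), 1.458 (SPC25), 1.423 (CENPA), 0.9319 (CENPE) and 0.956 (CENPF). Among spindle and midzone genes they were 0.7895 (KIF2C), 0.7331 (DLGAP5) and 0.9665 (PRC1), and MKI67 differed by 1.117.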

How the results depend on the processing

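With shRNA 1 the counts of mitosis genes lower and higher (26 and 4) became 26 and 4 with RLE size factors, 25 and 4 with DESeq2, 27 and 4 with no low-count filter and 23 and 4 in a fit of only those groups. They ran from 23 to 27 and from 4 to 6 when each library was left out. With shRNA 2 the 33 higher ran from 32 to 34 and the 1 lower stayed at 1 over the same settings, and between the shRNAs the 38 higher ran from 36 to 39 and the 2 lower stayed at 2. DESeq2 lost the calls of AURKB with shRNA 1 (adjusted p = 0.0543) and of ANLN between the shRNAs (0.0512). Fits of only the groups compared lost those calls (0.106 for AURKB and 0.0657 for ANLN) and the shRNA 1 calls of SPC24 (0.0693) and PRC1 (0.107), and called CCNB1 with shRNA 2 (0.00538). With total counts, chosen after seeing the data, 17 were lower and 13 higher with shRNA 1, and 10 calls of single genes were lost with their direction kept, 1 more was lost with its sign turned (PRC1 with shRNA 1, a log2 change of 0.00136, adjusted p = 0.989), and 11 were gained. By construction that setting leaves out the TMM factors, which differed between groups. No strong pairing by replicate number was seen, the 12 same-numbered pairs having correlations of deviations between -0.037 and 0.089, none over 0.1. A weaker pairing could go unseen in these correlations. In 2 of 12 libraries, both correlations with the same number exceeded all those with other numbers. With the replicate block, 27 were lower and 4 higher with shRNA 1, 33 higher and 1 lower with shRNA 2, and 38 higher and 2 lower between the shRNAs, and no call of a mitosis gene was lost. At these depths the lowest total of a mitosis gene over the 12 libraries was 2506 counts.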

Other observations

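Some genes of the companion lists, chosen after their values were seen, differed between the shRNAs more than the median mitosis gene (0.73 on the log2 scale). CDKN1A, the CDK inhibitor p21, was at 3.83, 8.83, 3.91 and 5.92 CPM in shRNA 1 libraries, 39.9, 42.8, 28.1 and 26.5 CPM in shRNA 2 libraries, and 5.08, 4.61, 3.73 and 4.26 CPM in control libraries. The shRNA 2 libraries stood far above all others, and shRNA 1 libraries overlapped the controls. CDKN1A rose with shRNA 2 (2.96 ± 0.24 SE, adjusted p = 1.98e-08, edgeR) and was not called with shRNA 1 (0.37 ± 0.26 SE, adjusted p = 0.239), with a difference of shRNA 2 from shRNA 1 of 2.59 ± 0.23 SE, adjusted p = 3.36e-08. PCNA, the sliding clamp of DNA polymerases, was at 125, 129, 152 and 165 CPM in shRNA 1 libraries, 49.7, 51.9, 48.4 and 47.7 CPM in shRNA 2 libraries, and 130.5, 137, 147 and 144 CPM in control libraries. It fell with shRNA 2 (-1.50 ± 0.08 SE, adjusted p = 8.26e-13), was at 0.03 ± 0.08 SE, adjusted p = 0.76 with shRNA 1, and differed between shRNA 2 and shRNA 1 by -1.53 ± 0.08 SE, adjusted p = 2.17e-13. MYBL2, the B-MYB factor that joins MuvB, averaged 235 ± 21.5 CPM with shRNA 1, 467 ± 22.8 CPM with shRNA 2 and 368 ± 34.01 CPM in controls (SD, n = 4 each). It fell with shRNA 1 (-0.65 ± 0.07 SE, adjusted p = 8.06e-08) and rose with shRNA 2 (0.34 ± 0.07 SE, adjusted p = 0.000429), a difference of 0.99 between the shRNAs. MCM2, a subunit of the replicative helicase, averaged 311 ± 9.01 CPM with shRNA 1, 614 ± 19.1 CPM with shRNA 2 and 646 ± 7.17 CPM in controls. It fell with shRNA 1 (-1.05 ± 0.06 SE, adjusted p = 2.31e-13), its shRNA 2 change was -0.07 ± 0.05 SE, adjusted p = 0.289, and the difference of shRNA 2 from shRNA 1 was 0.98 ± 0.06 SE, adjusted p = 6.44e-13. RRM2, the small subunit of ribonucleotide reductase, averaged 158 ± 13.2 CPM with shRNA 1, 423 ± 13.02 CPM with shRNA 2 and 209.97 ± 11.3 CPM in controls, with a fall with shRNA 1 (-0.42 ± 0.07 SE, adjusted p = 1.08e-05) and a rise with shRNA 2 (1.01 ± 0.07 SE, adjusted p = 1.7e-11), which differed from shRNA 1 by 1.43.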
